A study of Mus musculus with 16 samples.

Results

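Respiratory chain assembly factors are nuclear-encoded proteins that build the complexes of oxidative phosphorylation without, for the most part, staying in the finished enzymes. They were taken by gene symbol: the Ndufaf, Sdhaf, Uqcc and Atpaf families, Coa and Cox genes named for assembly, and Cox20, Sco1, Sco2, Surf1, Taco1, Bcs1l, Lyrm7, Ttc19, Foxred1, Nubpl, Ecsit, Tmem126b and Acad9. The rule found 43 of the 19108 gene symbols listed. Complex I had 13 members, complex II 4, complex III 6, complex IV (cytochrome c oxidase) 18 and the ATP synthase (complex V) 2, and all 43 passed the filter on low counts.

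Quadriceps muscle came from C57BL/6 mice aged 6 months on a regular chow diet, wild type (WT) or carrying the ANT1(Tg)/+ transgene (Tg). Each genotype was represented by 4 females and 4 males, so 16 libraries of stranded mRNA in all. Ant1, now Slc25a4, encodes the adenine nucleotide translocase of muscle, which exchanges ADP and ATP across the inner mitochondrial membrane. The promoter that drives the transgene is not given in the sources used here, and replicate numbers below only follow the order of deposition.

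Each complex is put together in steps. Nuclear-encoded subunits are imported, meet the few subunits made from mitochondrial DNA, and receive iron-sulfur clusters, flavin, heme or copper before the parts are joined. Assembly factors hold intermediates stable or insert these cofactors, and inherited loss of many of them causes mitochondrial disease, often of muscle, heart or brain. Transcripts of mitochondrial DNA itself were not analysed here.

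Total counts were 17435895 to 30680324 per library. Levels are in CPM, the counts of a gene scaled to a fixed library total, with each library size multiplied by its TMM factor (a trimmed mean of log ratios between libraries). Slc25a4 ran from 2792 to 3919 CPM in WT and from 8507 to 11040 CPM in Tg libraries, without overlap. Skeletal muscle markers such as Ckm and Myh4 summed to 170000.0 CPM or more in every library, so the labelled tissue carried its defining transcripts. Their median sum was 229300 CPM in WT and 190300 CPM in Tg, with Myh4 (-0.53, adjusted p = 0.00557) and Tnnt3 (-0.33, adjusted p = 0.0153) lower and Myh1 (1.05, adjusted p = 0.0169) higher among 8 markers. Of 3 red blood cell markers Hba-a1 was higher (0.38, adjusted p = 0.0472). The 8 adipocyte markers summed to 430.6 to 3078 CPM in WT and 337.1 to 1831 CPM in Tg, ranges that overlap. The brown fat markers Ucp1, Cidea and Elovl3 stood out in WT female 1, WT female 2 and Tg female 4 (212 to 344 CPM in sum) and, lower, in WT male 1 (8.47 CPM), against at most 2.37 CPM elsewhere; Ucp1 and Elovl3 were at 0 in some libraries. Of 7 slow fibre markers 5 were higher in Tg, as were 17.2% of all tested genes. Their sums were 38.2 to 105.6 CPM in WT and 42.8 to 1088 CPM in Tg, the highest in Tg female 2. Tnnc1, Myl2 and Myl3 were at 0 in some libraries. The part of these marker shifts in the results below was not tested. In whole muscle, a change in the share of a cell type and a change of RNA per cell cannot be told apart.

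In WT muscle the members spanned a 94.1-fold range of level per length (CPM per kilobase of the principal transcript), with a median of 12.5. Uqcc2, which binds newly made cytochrome b, was the highest at 187 ± 21.7 CPM per kilobase (SD, n = 8). Within the other complexes the leading members were Cox14 of complex IV (69.8 ± 10.1), Ecsit of complex I (50.8 ± 5.81), Atpaf1 of the ATP synthase (23.6 ± 2.54) and Sdhaf4 of complex II (19.3 ± 1.29). Sdhaf3, Lyrm7, Nubpl, Sco1, Coa4 and Cox18 formed the low end, at 1.99 to 3.73 CPM per kilobase. The plot of levels per kilobase sets these differences in level between genes beside the genotype differences, of which the largest was 1.59-fold.

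**Figure D1:**
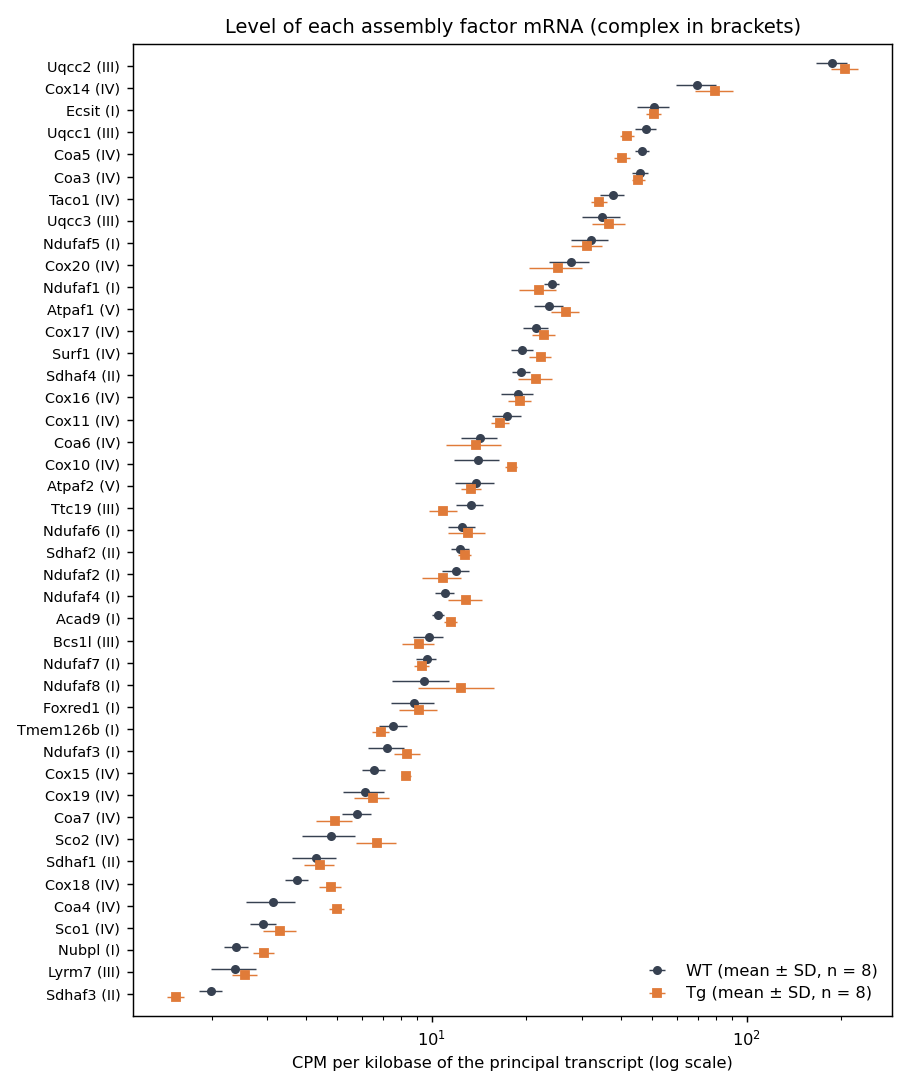
Level of each of the 43 assembly factor mRNAs in CPM per kilobase of the principal transcript (log scale), with circles for WT and squares for Tg (mean ± SD, n = 8 libraries each). Uqcc2 stands highest at 187 in WT and Sdhaf3 lowest at 1.99, and the genotypes lie close together for most genes.

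Averaged over the sexes, 9 of 43 assembly factors were higher in Tg muscle and 5 were lower at an adjusted p under 0.05 (edgeR quasi-likelihood test, Benjamini-Hochberg over 13666 genes). That is 32.6% of members called against 30.4% of all tested genes (17.2% higher and 13.3% lower), so the share called is near the background. The members that rose were Coa4, Sco2, Cox10, Cox18, Cox15 and Surf1 of complex IV and Nubpl, Ndufaf4 and Acad9 of complex I. Those that fell were Coa5 and Coa7 of complex IV, Ttc19 and Uqcc1 of complex III and Sdhaf3 of complex II. The changes were small, from -0.37 to 0.67 on the log2 scale, with a median over all members of 0.05 against -0.01 over all tested genes. The plot of fold changes by complex shows both directions within complex IV, only increases among the called complex I members, and only decreases among those of complexes II and III.

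**Figure D2:**
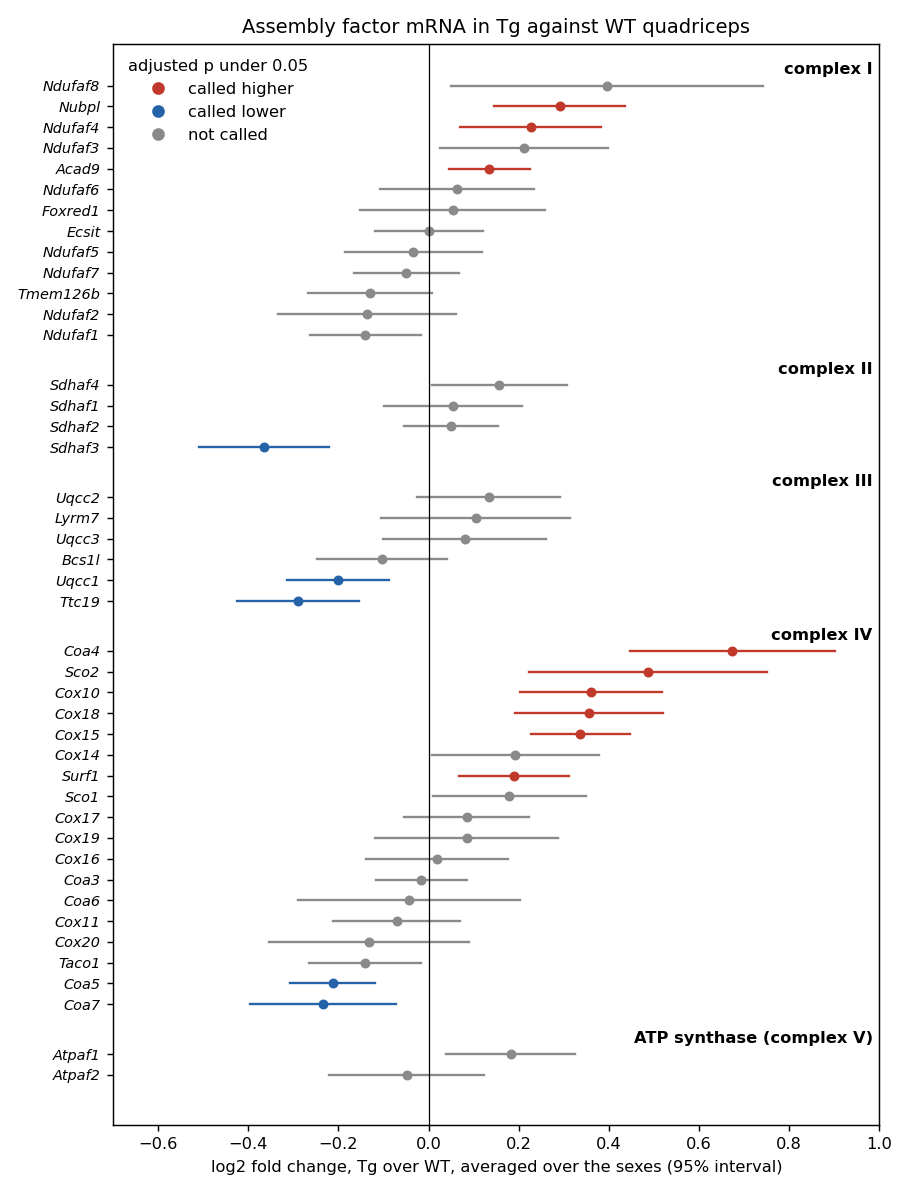
Log2 fold change of each assembly factor, Tg over WT averaged over the sexes, by complex; bars are 95% intervals from the edgeR fit and colour marks members called higher, lower or not called. Coa4 lies farthest to the right at 0.67 and Sdhaf3 farthest to the left at -0.37.

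The sum of all 43 members did not separate the genotypes. It was 1336 to 1527 CPM in WT females, 1387 to 1490 in WT males, 1373 to 1512 in Tg females and 1327 to 1428 in Tg males, and these ranges overlap. Every Tg library lay beyond every WT library of its sex for 5 members, 3 upward (Coa4, Cox15 and Cox18; 6.89% of all tested genes) and 2 downward (Coa5 and Sdhaf3; 3.94%), against 10.8% of all genes in either direction. For Coa4, Cox15 and Cox18 (5.23% of all genes) and for Sdhaf3 (2.69%) this also held for all 8 Tg against all 8 WT libraries. Without the 4 libraries with the highest brown fat markers, 6 members were called higher and 6 lower, 27.9% of members against 28.5% of all genes in that fit. Sco2 was then at 0.41 (SE 0.15, adjusted p = 0.0669), Surf1 at 0.15 (SE 0.08, adjusted p = 0.165) and Ndufaf4 at 0.17 (SE 0.09, adjusted p = 0.17), no longer called but with the same sign and, over 12 libraries, larger SEs. Tmem126b was called there (-0.18, adjusted p = 0.0499). Without WT female 4, the library with the lowest TMM factor (0.887), 14 members were called higher and 4 lower (41.9% of members), while the share of all genes called was 33%, with 18.3% higher and 14.6% lower.

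Complex IV held 8 of the 14 called members, 6 higher and 2 lower of 18 (44.4%). Over all tested genes 30.4% were called, 17.2% higher and 13.3% lower. Its catalytic core needs heme a and copper in subunits made inside the mitochondrion, and its assembly factors divide by these tasks. Coa4, a small protein of the intermembrane space that complex IV needs, gave the largest change of any member. Its level was 3.22, 3.33, 2.78 and 4.30 CPM in WT females and 2.94, 2.53, 3.61 and 3.95 CPM in WT males. In Tg it was 5.74, 5.22, 5.23 and 5.32 CPM in females and 5.35, 5.21, 4.79 and 5.70 CPM in males. All 8 Tg libraries were above all 8 WT libraries, although the gene is among the least abundant members. Coa4 (chromosome 7, 100537071 to 100540369, plus strand, mm10) rose 1.59-fold (log2 0.67, SE 0.11, adjusted p = 0.000178), by 0.66 in females and 0.69 in males.

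Averaged over the sexes, the 3 factors that make and place heme a were called higher, where 17.2% of all tested genes were. All 3 were called in females (10.1% of all genes higher), but in males only Cox15 was (9.85% of all). The male differences of Cox10 and Surf1 were 0.23 and 0.08. Cox10 turns heme b into heme o, Cox15 turns heme o into heme a, and Surf1 helps to place heme a in the COX1 subunit. Cox15 was at 29.4, 30.8, 28.8 and 34.3 CPM in WT females and 29.1, 35.97, 32.3 and 31.03 CPM in WT males. In Tg females it was at 41.1, 40.6, 40.2 and 39.2 CPM, and in Tg males at 40.9, 36.7, 39.9 and 39.2 CPM. No Tg library overlapped a WT library, and the gene (chromosome 19, 43733254 to 43753000, minus strand) rose 1.26-fold (log2 0.34, SE 0.05, adjusted p = 0.000139), the smallest adjusted p of any member.

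Cox10 was at 35.4, 41.1, 29.9 and 42.4 CPM in WT females against 52.6, 50.98, 53.2 and 52.1 CPM in Tg females. In males it was at 41.4, 53.3, 40.1 and 43.8 CPM in WT against 57.1, 51.4, 51.7 and 49.2 CPM in Tg. The females did not overlap, while WT male 2 lay inside the Tg range; averaged, Cox10 rose 1.28-fold (log2 0.36, SE 0.07, adjusted p = 0.00156). Surf1 was at 22.1, 21.8, 20.1 and 25.2 CPM in WT females and 24.1, 24.3, 20.7 and 23.8 CPM in WT males. It was at 28.7, 24.2, 27.3 and 29.4 CPM in Tg females and 24.7, 25.1, 24.4 and 24.2 CPM in Tg males. Both sexes overlapped, and the rise was smaller, 1.14-fold (log2 0.19, SE 0.06, adjusted p = 0.0193). Surf1 shares exonic bases with Surf2 on the opposite strand, which itself changed by 0.56 (SE 0.08, adjusted p = 4.22e-05), and whether counting used the strand is not given. Cox15 likewise overlaps Cutc (-0.02, SE 0.06, adjusted p = 0.813) and Entpd7 (-0.25, SE 0.16, adjusted p = 0.268) on the opposite strand, neither of them called. An antisense gene, 9630013K17Rik, overlaps exons of Cox10, and it was not tested.

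Among copper factors, 1 of 6 was called (16.7%, against 30.4% of all tested genes). Sco2, which delivers copper to the COX2 subunit, was at 4.36, 6.20, 4.06 and 7.501 CPM in WT females and 5.62, 6.05, 6.29 and 5.91 CPM in WT males. In Tg it was at 7.77, 10.2, 6.46 and 8.62 CPM in females and 8.50, 8.30, 7.48 and 6.97 CPM in males. The males were separate and the females overlapped, and the average was 1.4-fold higher (log2 0.49, SE 0.12, adjusted p = 0.00707). Sco2 shares exons with Tymp on the same strand and with Ncaph2 on the other, and 93.8% of its deposited values were not whole numbers, so its counts are given as uncertain. Its paralog Sco1, which also acts in the copper step, was at 7.05 ± 0.654 CPM in WT and 7.97 ± 0.959 CPM in Tg (log2 0.18, SE 0.08, adjusted p = 0.103). Cox17, the copper donor to both Sco proteins, had a log2 fold change of 0.08 (95% interval -0.06 to 0.22), Cox19 0.08, Coa6 -0.04 and Cox11, which serves the copper site of COX1, -0.07, none of them called.

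For the COX2 subunit, Cox18, which moves its tail across the inner membrane, rose 1.28-fold (log2 0.36, SE 0.08, adjusted p = 0.00233). Its levels were 5.20, 5.10, 4.32 and 5.18 CPM in WT females, 5.66, 4.96, 4.45 and 4.93 CPM in WT males, 5.74, 6.02, 6.25 and 6.72 CPM in Tg females and 6.80, 6.56, 5.77 and 7.12 CPM in Tg males. The lowest Tg library stood just above the highest WT library. Cox20, which chaperones COX2, was at 13 ± 1.90 CPM in WT and 11.9 ± 2.27 CPM in Tg (adjusted p = 0.368), and Cox16 had a log2 fold change of 0.02 (95% interval -0.14 to 0.18). Cox16 shares exons with Gm20498 on the same strand (mean 12.24 CPM, not called). Its deposited values were not whole numbers in 93.8% of libraries, so its counts are also uncertain.

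The factors of COX1 synthesis were not called. Taco1, an activator of COX1 translation, was at 52.0 ± 4.49 CPM in WT and 47.2 ± 2.83 CPM in Tg (log2 -0.14, SE 0.06, adjusted p = 0.0827), though DESeq2 called it lower (-0.16, adjusted p = 0.0489). Coa3 and Cox14, which hold newly made COX1, had log2 fold changes of -0.02 (95% interval -0.12 to 0.09) and 0.19 (0.01 to 0.38, adjusted p = 0.111).

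Coa5 and Coa7 fell while Coa4 rose. Coa5, a small intermembrane space protein, was at 191.5, 183, 184 and 179 CPM in WT females and 174, 191.4, 165.5 and 175 CPM in WT males, the highest CPM of any member. It was at 171, 154, 167 and 152 CPM in Tg females and 148, 156, 146 and 152 CPM in Tg males. Neither sex overlapped, and Coa5 (chromosome 1, 37417084 to 37430103, minus strand) fell by 0.21 on the log2 scale (SE 0.04, adjusted p = 0.00168). Coa7, a heme-binding protein of the same compartment, was at 21.1, 18.2, 22.9 and 25.9 CPM in WT females and 19.96, 21.8, 21.3 and 20.9 CPM in WT males. It was at 23.7, 18.3, 18.7 and 17.9 CPM in Tg females and 16.2, 18.97, 16.6 and 16.2 CPM in Tg males. The males were separate and the females overlapped, and Coa7 fell by 0.23 on the log2 scale (SE 0.08, adjusted p = 0.0281). Leaving out any 1 of 7 libraries, Tg females 2, 3 and 4, Tg males 1 and 4, WT female 4 and WT male 2, ended the call of Coa7 (adjusted p up to 0.0593).

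**Figure D3:**
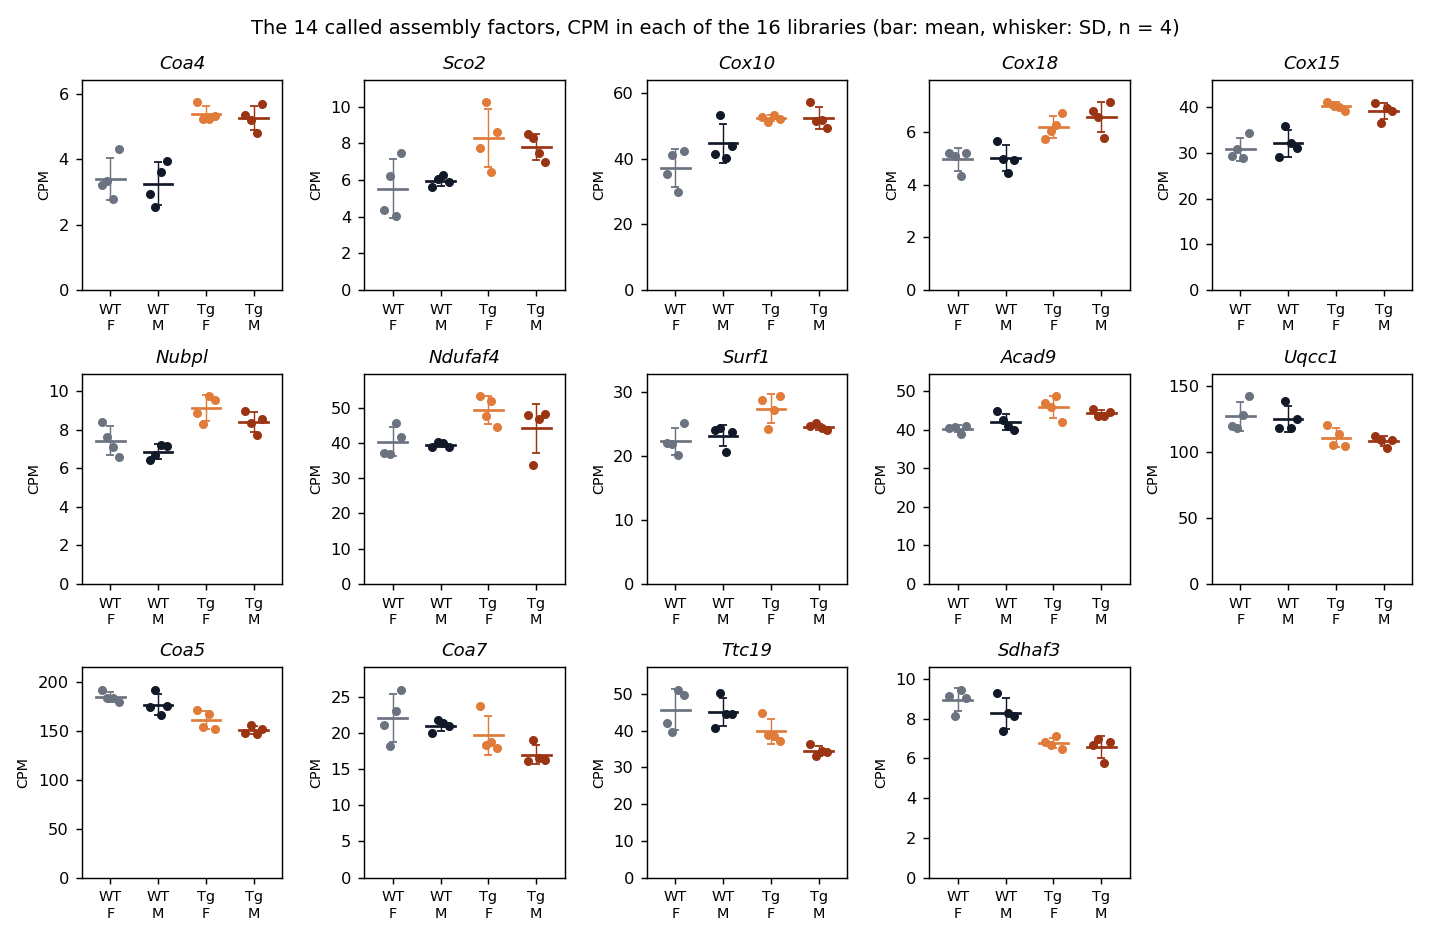
CPM of the 14 called assembly factors in each library; points are libraries of WT and Tg females (F) and males (M), bars are means and whiskers SD (n = 4), and every axis starts at 0. Coa4, Cox15 and Cox18 have all Tg points above all WT points, Sdhaf3 has them all below, and the other genes overlap in part.

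In complex I, 3 of 13 factors were higher and 0 lower (23.1% called, against 30.4% of all tested genes, 17.2% higher and 13.3% lower). Nubpl, which carries iron-sulfur clusters to complex I, was at 8.42, 7.65, 7.10 and 6.62 CPM in WT females and 6.42, 6.72, 7.21 and 7.16 CPM in WT males. It was at 8.90, 8.33, 9.76 and 9.56 CPM in Tg females and 8.97, 8.34, 7.75 and 8.55 CPM in Tg males. The males were separate and 1 WT female reached into the Tg range. Nubpl (chromosome 12, 52097737 to 52312744, plus strand) rose 1.22-fold (log2 0.29, SE 0.07, adjusted p = 0.00388), by 0.29 in each sex.

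Ndufaf4 acts with Ndufaf3 on the quinone-binding arm. It was at 37.1, 36.9, 45.7 and 41.7 CPM in WT females and 38.9, 40.3, 39.9 and 38.8 CPM in WT males. In Tg muscle it was at 53.2, 47.6, 51.7 and 44.5 CPM in Tg females and 47.9, 33.8, 46.8 and 48.2 CPM in Tg males. Tg male 2 lay below every WT library, and on average Ndufaf4 rose 1.17-fold (log2 0.23, SE 0.07, adjusted p = 0.029). Its call was lost on leaving out any 1 of 9 libraries: Tg females 1 and 3, Tg males 1, 3 and 4, WT females 1 and 2, and WT males 1 and 4 (adjusted p up to 0.0628). Ndufaf3 was at 10.7 ± 1.38 CPM in WT and 12.4 ± 1.197 CPM in Tg and was not called (log2 0.21, adjusted p = 0.0813); its exons overlap Impdh2 on the opposite strand, which was higher in Tg (0.63, SE 0.07, adjusted p = 2.91e-06). Ndufaf8, the partner that stabilises Ndufaf5, had the largest uncalled difference (log2 0.40, 95% interval 0.05 to 0.74, adjusted p = 0.079), with Tg male 2 at 15.5 CPM against 6.46 to 10.4 CPM in the other Tg libraries. Ndufaf5 and Ndufaf7, which modify arginines of core subunits, had log2 fold changes of -0.03 and -0.05, and Ndufaf6 of 0.06.

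Of the factors that build the membrane arm, only Acad9 was called. Acad9, which is related to the acyl-CoA dehydrogenases of fat oxidation, was at 40.5, 40.7, 39.01 and 40.98 CPM in WT females and 44.9, 42.5, 40.97 and 39.9 CPM in WT males. It was at 47.1, 46.1, 48.8 and 41.97 CPM in Tg females and 45.5, 43.7, 43.7 and 44.7 CPM in Tg males. The females were separate and the males overlapped, and the average rise was 1.1-fold (log2 0.13, SE 0.04, adjusted p = 0.0238). With RLE scaling it was not called (adjusted p = 0.0565), nor without Tg female 3 or WT male 4 (adjusted p up to 0.057). An annotated gene on the same strand, Gm43079, overlaps its exons and was not tested. Its partners were not called: Ecsit had a log2 fold change of 0.00 (95% interval -0.12 to 0.12), Tmem126b -0.13 (-0.27 to 0.01) and Ndufaf1 -0.14 (-0.26 to -0.02, adjusted p = 0.0789). The remaining factors, Foxred1 and the late-acting Ndufaf2, had values of 0.05 and -0.14 and were not called.

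Complex II had 1 called factor of 4 (25%, against 30.4% of all tested genes), and it fell. Sdhaf3, which protects the iron-sulfur subunit during assembly, was at 9.16, 8.12, 9.45 and 9.05 CPM in WT females and 9.27, 7.38, 8.26 and 8.13 CPM in WT males. It was at 6.83, 6.67, 7.12 and 6.47 CPM in Tg females and 6.69, 6.99, 5.77 and 6.83 CPM in Tg males. Every Tg library was below every WT library, and Sdhaf3 (chromosome 6, 6956004 to 7042979, plus strand) fell by 0.37 on the log2 scale (SE 0.07, adjusted p = 0.000682). Sdhaf1, which serves the same subunit, had a log2 fold change of 0.05 (95% interval -0.10 to 0.21), Sdhaf2, which attaches the flavin, 0.05 (-0.06 to 0.15), and Sdhaf4, which binds the flavoprotein, 0.16 (0.01 to 0.31, adjusted p = 0.106).

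In complex III, 2 of 6 factors (33.3%) fell and 0 rose, where 13.3% of all tested genes were lower and 17.2% higher. Ttc19, which clears fragments of the Rieske protein from the complex, was at 42.0, 39.7, 51.1 and 49.8 CPM in WT females and 40.8, 50.2, 44.4 and 44.6 CPM in WT males. It was at 44.8, 38.7, 38.6 and 37.1 CPM in Tg females and 36.3, 33.02, 34.5 and 34.1 CPM in Tg males. The males were separate, while Tg female 1 lay inside the WT range, and Ttc19 fell by 0.29 on the log2 scale (SE 0.06, adjusted p = 0.00253). Its exons overlap Ncor1 on the opposite strand, at a mean of 132.4 CPM and not called (0.03, SE 0.04, adjusted p = 0.675). Uqcc1, which with Uqcc2 takes up new cytochrome b, was at 120.1, 119, 128 and 143 CPM in WT females and 119, 139, 118 and 125 CPM in WT males. It was at 121, 106, 114 and 105 CPM in Tg females and 112, 109, 103 and 109.7 CPM in Tg males. The males were separate and the females overlapped, and Uqcc1 fell by 0.20 on the log2 scale (SE 0.05, adjusted p = 0.00942). Uqcc2 went the other way without being called (0.13, 95% interval -0.02 to 0.29), and Uqcc3, Lyrm7 and Bcs1l, of which the last 2 handle the Rieske protein, had values of 0.08, 0.10 and -0.10. Values of Uqcc1 and Uqcc2 were not whole numbers in 75% and 81.2% of libraries.

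The ATP synthase factors Atpaf1 and Atpaf2 bind the beta and alpha subunits before these join. Neither was called, with Atpaf1 at 55.0 ± 5.92 CPM in WT and 62.2 ± 6.42 CPM in Tg (log2 0.18, SE 0.07, adjusted p = 0.0533) and Atpaf2 at 25.03 ± 3.57 and 24.2 ± 1.75 CPM (log2 -0.05, 95% interval -0.22 to 0.12). Among the 29 members not called in any complex, the 95% intervals together reached from -0.35 to 0.74.

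Tested in each sex, 8 members were higher and 2 lower in Tg females, where 17.7% of all tested genes were called (10.1% higher, 7.57% lower). In Tg males 4 were higher and 4 lower, where 18.2% of all were called (9.85% higher, 8.39% lower). Without the 4 libraries with the highest brown fat markers, 2 were higher (Cox10, Cox15) and 2 lower (Sdhaf3, Ttc19) in females, 9.3% of members against 13.1% of all genes. In males 2 were then higher (Coa4, Cox18) and 5 lower (Coa5, Coa7, Ndufaf1, Ttc19, Uqcc1), 16.3% against 19.6%. With all libraries, Coa4, Cox15, Nubpl, Coa5 and Sdhaf3 were called in both sexes by edgeR. Of these, Nubpl (adjusted p = 0.0459 in females and 0.048 in males) was called in neither sex by DESeq2, with no filter on low counts or with the adipocyte marker covariate, nor in males with RLE scaling or in females with the 2 groups alone, and Coa5 in females and Sdhaf3 in males were not called with no filter or with the 2 groups alone. Coa5 was also not called in females with the covariate. Called in females only were Cox10, Sco2, Surf1, Acad9 and Atpaf1, and in males only Cox18, Ttc19 and Ndufaf1. In males Cox10 was at 0.23 (adjusted p = 0.154), Sco2 at 0.39 (0.147), Surf1 at 0.08 (0.571) and Acad9 at 0.08 (0.434). Their female differences were 0.49, 0.58, 0.30 and 0.19. In females Cox18 was at 0.32 (adjusted p = 0.0564) and Ttc19 at -0.20 (0.145), against 0.39 and -0.38 in males. Atpaf1 was at 52.6, 48.3, 48.03 and 54.5 CPM in WT females and 56.1, 66.4, 55.2 and 58.8 CPM in WT males. It was at 62.01, 58.2, 70.1 and 60.9 CPM in Tg females and 68.99, 50.5, 59.9 and 66.8 CPM in Tg males. The females were separate and the males overlapped, with a female difference of 0.31 (SE 0.10, adjusted p = 0.0381), against 0.06 (SE 0.10) in males. Ndufaf1 was at 34.1, 34.5, 37.04 and 36.8 CPM in WT females and 36.5, 33.9, 31.3 and 34.8 CPM in WT males. It was at 36.8, 36.1, 35.9 and 30.9 CPM in Tg females and 31.8, 24.8, 28.6 and 29.2 CPM in Tg males. Both sexes overlapped, with a male difference of -0.25 (SE 0.08, adjusted p = 0.0414), against -0.03 (SE 0.08) in females.

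These lists do not show that the sexes differ. The test of the difference itself (male minus female genotype effect) called 0 of 43 members with edgeR, DESeq2 or limma-voom. Of all 13666 genes it called 1 with edgeR (0.00732%), 80 with DESeq2 (0.585%) and 1 with limma-voom (0.00732%). At an unadjusted p under 0.05 there was 1 member of 43, Ecsit, against 1015 of all 13666 genes. Ecsit was at 0.14 (SE 0.08) in females and -0.14 (SE 0.08) in males (interaction -0.28, SE 0.11, unadjusted p = 0.0233). Between WT males and WT females 0 of 43 members were called by edgeR (3.67% of all genes, 2.01% higher and 1.65% lower in males). Of the 43 members 5 were at an unadjusted p under 0.05, against 2186 of all 13666 genes. Among these 5 the smallest p value was that of Sdhaf1, at 7.95 to 10.6 CPM in WT females and 11.6 to 12.4 CPM in WT males (log2 0.36, SE 0.10, unadjusted p = 0.00285), which DESeq2 and limma-voom called. The plot of female against male effects shows the called members on 1 side of 0 in both sexes. They were called on the average of these same effects, which favours equal signs. Over all 43 members the male minus female estimate was positive for 12 and negative for 31, against 7455 and 6211 of all tested genes.

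**Figure D4:**
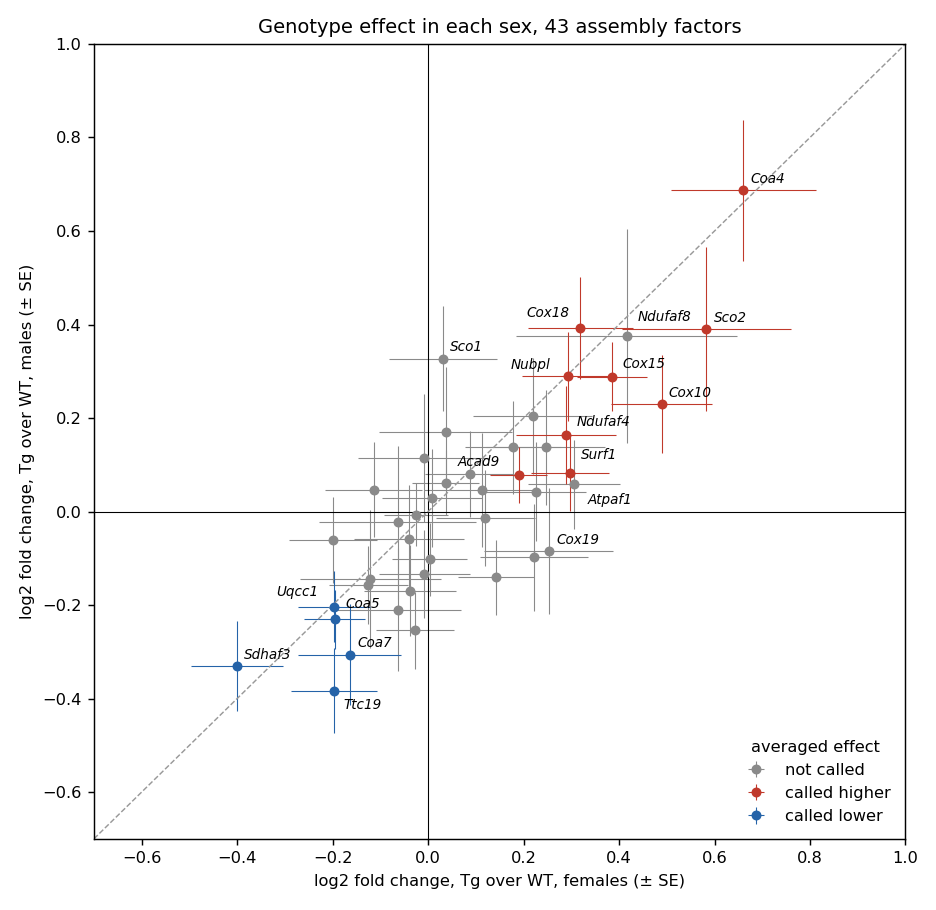
Log2 fold change of Tg over WT in females (x axis) and males (y axis) for the 43 assembly factors, with SE bars; colour gives the call of the averaged effect and the dashed line marks equal effects. Coa4 lies near the line at 0.66 and 0.69, and Cox10 below it at 0.49 and 0.23.

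Promoter sequences were looked at for 38 of the 43 members, which had 40 RefSeq windows (build GRCm38.p6) from 250 bases before to 50 after a start. Both strands were searched for 6 motifs, and matches of different motifs did not overlap. The core letters of the ATF4 response element, TGATGNAA, were in 1 member window (2.5%, against 2.29% of 13691 windows of all tested genes), and that window belonged to Coa4, the member that rose most. The cyclic AMP response element, TGACGTCA, was in 3 (7.5% against 2.82%), those of Nubpl, Coa7 and Ttc19. All 3 genes were called, Nubpl higher and the others lower, where 32.6% of all members and 30.4% of all tested genes were called. Letters of the NRF1 motif were in 5 windows (12.5% against 9.31%), those of Ndufaf4 and Sdhaf3, both called, and of Ndufaf5, Sdhaf4 and Uqcc2, not called. Letters of ETS factors, CCGGAAGT, were in 5 (12.5% against 7.38%), those of Cox10 and Cox15, both called, and of Bcs1l, Cox14 and Cox16, not called. The YY1 letters, AANATGGCG, were in 6 (15% against 4.61%). Of these genes Cox10 was called, and Atpaf2, Coa3, Ndufaf8, Sdhaf2 and Tmem126b were not. The ERR letters, TNAAGGTCA, were in 0 (0.782% of all). A match describes letters only, with no evidence of binding in these data.

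The stretches below lie upstream of the annotated exons and carry some of these letters in called genes, with the match in capitals. Cox10, Cox15 and Sdhaf3, also called and with matches, are not shown. The Coa4 match starts 244 bases before the RefSeq start (chr7:100536850-100537070, plus strand), those of Nubpl 27 (chr12:52097496-52097736, plus strand), Coa7 59 (chr4:108327902-108328139, plus strand) and Ttc19 51 bases before it (chr11:62281376-62281472, plus strand), and the NRF1 letters of Ndufaf4 113 bases before it (chr4:24897833-24898082, plus strand).
Coa4: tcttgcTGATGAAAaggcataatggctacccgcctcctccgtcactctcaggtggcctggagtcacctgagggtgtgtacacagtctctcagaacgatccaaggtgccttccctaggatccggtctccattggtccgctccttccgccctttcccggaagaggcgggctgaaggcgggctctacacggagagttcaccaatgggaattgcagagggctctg
Nubpl: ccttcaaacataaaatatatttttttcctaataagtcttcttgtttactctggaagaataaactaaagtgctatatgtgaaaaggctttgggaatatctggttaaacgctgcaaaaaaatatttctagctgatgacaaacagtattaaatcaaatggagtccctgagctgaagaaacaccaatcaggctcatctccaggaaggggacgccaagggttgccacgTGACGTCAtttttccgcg
Coa7: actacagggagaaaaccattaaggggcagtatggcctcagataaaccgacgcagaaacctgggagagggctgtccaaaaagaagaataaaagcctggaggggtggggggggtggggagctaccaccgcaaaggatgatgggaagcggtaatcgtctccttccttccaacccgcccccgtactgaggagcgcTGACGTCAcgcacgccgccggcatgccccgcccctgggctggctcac
Ttc19: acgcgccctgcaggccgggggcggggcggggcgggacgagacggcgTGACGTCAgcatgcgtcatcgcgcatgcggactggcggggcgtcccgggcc
Ndufaf4: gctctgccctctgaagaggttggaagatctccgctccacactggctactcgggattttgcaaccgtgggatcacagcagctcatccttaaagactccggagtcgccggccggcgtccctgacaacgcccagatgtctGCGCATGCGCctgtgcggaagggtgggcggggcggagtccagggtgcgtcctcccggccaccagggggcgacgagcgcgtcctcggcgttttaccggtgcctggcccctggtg

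Many members share a start region with another gene. In GENCODE M21, 14 of 43 (32.6%) had a protein-coding gene starting within 1000 bases on the opposite strand and running away from it, against 13.1% of 17125 protein-coding genes of the files. Of 13 such neighbours tested, 4 were called, all higher (30.4% of all tested genes are called in either direction), and in 1 pair, Surf1 and Surf2, both genes rose. The largest change was that of Dlg2 (3.56, SE 0.40, adjusted p = 7.78e-06), 671 bases from Tmem126b, which was not called. Ercc8, 108 bases from Ndufaf2, was also higher (0.27, SE 0.09, adjusted p = 0.0372). Ttc19 fell while its neighbour Zswim7, whose start is 98 bases away, was higher (0.21, SE 0.07, adjusted p = 0.0366). The start of Cutc lies 4 bases from that of Cox15, and Unc50, 36 bases from Coa5, was not called (0.09, SE 0.06, adjusted p = 0.315).

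Other genes of assembly, outside the symbol rule, also moved in both directions. Of 26 tested, 7 were higher and 4 lower (42.3% called), with a median of 0.05. Of all tested genes 30.4% were called (17.2% higher, 13.3% lower), with a median of -0.01. Within the sexes 19.2% of these 26 were called in females and 11.5% in males, against 17.7% and 18.2% of all tested genes. Higd2a, which acts in joining complexes into supercomplexes, fell from 65.8 ± 6.97 to 47.7 ± 3.39 CPM (SD, n = 8 each; log2 -0.46, SE 0.06, adjusted p = 2.06e-05). Oxa1l, the insertase of the inner membrane, rose 1.23-fold (adjusted p = 0.000662), Lrpprc, which stabilises mitochondrial mRNA, 1.18-fold (adjusted p = 0.00127) and Cox7a2l, a supercomplex factor, 1.14-fold (adjusted p = 0.00216). Fdxr, the reductase that supplies electrons to mitochondrial ferredoxins, rose from 2.83 ± 0.77 to 4.49 ± 0.533 CPM (log2 0.66, SE 0.16, adjusted p = 0.0044). Dmac2 rose 1.2-fold (adjusted p = 0.0162).

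Calls among the subunits of the same complexes are given beside those of the assembly factors, with no test between them. For scale, 30.4% of all tested genes were called (17.2% higher, 13.3% lower). Of complex I subunit genes 7 of 38 (18.4%) were called, 3 higher and 4 lower, beside 3 of 13 assembly factors. Of complex IV subunit genes 5 of 14 (35.7%) were called, 4 higher and 1 lower, beside 8 of 18. For complex II it was 1 of 4 in both sets, but higher among the subunits. For complex III it was 4 of 9 subunits (44.4%), 3 higher and 1 lower, beside 2 of 6 factors, 0 higher and 2 lower. For the ATP synthase it was 4 of 17 subunits (23.5%), 3 higher and 1 lower, beside 0 of 2 factors. In females 2 subunits were higher in complex I, 1 in III, 2 in IV and 4 in the ATP synthase, and 0 were lower. In males complex I had 0 higher and 5 lower, and the ATP synthase 0 and 3. Complexes III and IV had 1 and 2 in each direction. Complex II had 0 called in either sex. Of all tested genes 10.1% were higher and 7.57% lower in females, and 9.85% and 8.39% in males. The test of the difference between the sexes called 0 of these subunits.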

How the data were processed

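Polyadenylated RNA of the quadriceps of 16 mice was sequenced. The authors deposited 1 table per library with values for 19108 gene symbols, taken as estimated counts, because they are at least 0, some are fractional and the totals differ between libraries. Per the submitters' processing notes, bcl2fastq, cutadapt 1.2.1, TopHat2, Bowtie2 and the build mm10 were used; the counting program, its annotation and its strand setting were not stated there. Estimated counts were rounded.

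Genes were filtered with filterByExpr (minimum count 10, total 15; 13666 left). Group means were fitted to all 16 libraries with edgeR 4.0.16 in R 4.3.3 (TMM, robust quasi-likelihood) and 5 contrasts were tested two-sided. Calls are at an adjusted p under 0.05 over all genes. SE is the log2 fold change over the square root of F. Intervals are at 95%.

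Positions, overlaps and transcript lengths are from GENCODE M21 (build mm10), where 43 of 43 symbols matched 1 gene. Length of the principal transcript is the median over the protein-coding transcripts at the best APPRIS principal level of the gene. For a gene with no such level, all its protein-coding transcripts would be used.

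Members and lists were chosen with earlier results of these data known. Named are all members, with library values and full statistics for those called with Tg and WT libraries apart in both sexes, or called in 1 sex only, the highest per kilobase in each complex, and up to 6 called related genes by adjusted p. Library values of Nubpl, Ndufaf4, Coa7 and Uqcc1 were added after their values were seen. Alternatives were RLE scaling, no filter, unrounded values, DESeq2 1.42.0, limma-voom (limma 3.58.1), additive terms, the 2 groups alone and each library left out.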

Additional observations from a re-analysis of the deposited data

Results flagged for a closer look

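In 172 groups of 4 libraries (43 members in 4 groups), 1 library lay far from the other 3 in 8; chance alone gives about 5% of groups. Of the 8, 3 were in Tg male 2: Coa7 at 18.97 CPM (others 16.2 to 16.6), Ndufaf3 at 15.2 CPM (others 11.5 to 12.03) and Ndufaf4 at 33.8 CPM (others 46.8 to 48.2). Atpaf2 was at 30.4 CPM in WT male 1 (others 22.1 to 23.2), and Surf1 at 20.7 CPM in WT male 3 (others 23.8 to 24.3). Coa7 was at 23.7 CPM in Tg female 1 (others 17.9 to 18.7), Ndufaf1 at 30.9 CPM in Tg female 4 (others 35.9 to 36.8) and Cox18 at 4.32 CPM in WT female 3 (others 5.10 to 5.20). No cause was tested. No member was called by the test of the difference between the sexes with edgeR, DESeq2 or limma-voom. These called 0.00732%, 0.585% and 0.00732% of all tested genes. With edgeR 1 member was at an unadjusted p under 0.05, as were 1015 of all 13666 tested genes.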

How the results depend on the processing

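For the averaged effect, the counts of 9 higher and 5 lower (17.2% and 13.3% of all tested genes) stayed within 8 to 9 and 5 to 7 under the other scaling, filter, rounding, tools and additive design. Of these fits, the one with no filter had the lowest shares of all genes (12% higher, 8.64% lower). Leaving out single libraries gave 7 to 14 higher and 4 to 6 lower. The 14 came without WT female 4, where 18.3% of all genes were higher. Coa4, Cox10, Cox15, Cox18, Nubpl, Coa5, Sdhaf3, Ttc19 and Uqcc1 were called in all 24 alternatives run for them, and no called member changed sign. In females, 8 higher (10.1% of all genes) became 5 with an adipocyte marker covariate (8.1% of all) and 4 with the 2 groups alone (6.53%). Without the 4 libraries rich in brown fat markers there were 2 (6.61% of all). Both choices on fat were made after seeing the data. Leaving out single libraries gave 3 to 10 higher. It was 3 without Tg female 1 (7.18% of all genes higher), and 4 without Tg female 4 (9.26%) or WT female 3 (8.55%). It was 5 without Tg female 3 (7.57%), WT female 1 (7.58%) or WT female 2 (9.13%). The 2 lower (7.57% of all) became 1 with no filter (4.52%), 1 with the 2 groups alone (4.15%) and 1 to 2 without single libraries. In males, 4 higher (9.85% of all genes) became 2 without the 4 libraries (8.79%) and 2 to 5 without single ones. It was 2 without Tg male 4 (7.75% of all genes higher), WT male 1 (7.33%), WT male 3 (7.47%) or WT male 4 (7.08%). The 4 lower (8.39% of all) became 2 with no filter (5.34%) and 1 to 6 without single ones. It was 1 without Tg male 3 (6.43% of all genes lower), and 2 without Tg male 1 (6.39%), WT male 1 (7.82%) or WT male 2 (6.44%). The interaction stayed at 0 and 0 throughout, where at most 0.585% of all genes were called (DESeq2). For WT males against WT females, DESeq2 and limma-voom gave 1 higher (Sdhaf1), where 3.45% and 1.98% of all genes were higher. Leaving out single libraries gave 0 to 2 higher and 0 lower, with 2 higher without WT female 4 (3.04% of all genes higher). The cause of these shifts was not tested. No paired analysis was possible because the replicate numbers are only the order of deposition. The low members have few counts, with Coa4 at 52 or more counts per library, which limits their precision.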
